A study of Mus musculus with 2 samples.

Results

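The 8 genes Lrp2, Cubn, Amn, Lrpap1, Dab2, Clcn5, Ocrl and Fcgrt encode the machinery with which the proximal tubule takes filtered proteins back from the primary urine. They were chosen by name and matched by gene identifier, with the version removed, in the gene and transcript tables of both libraries. All 8 were found among 43346 gene rows, and all 8 passed the filter on low counts. Polyadenylated RNA of whole kidney from an adult female C57BL/6J mouse, aged 10 weeks, was sequenced in 2 libraries. The labels call them technical replicates 2 and 1 of a single biological replicate and name no treatment, allele or second group. They are called library 2 and library 1 here, and the labels give library 2 as the later one. Every SD is therefore technical (n = 2 libraries of 1 tissue sample), and no value speaks to differences between animals.

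Receptor-mediated endocytosis in the proximal tubule rests on a pair of very large receptors at the brush border. Megalin, encoded by Lrp2, crosses the membrane, whereas cubilin, encoded by Cubn, has no transmembrane segment and is anchored by amnionless, encoded by Amn. Adaptors gather the receptors in clathrin-coated pits, endosomes are acidified so that ligands come off, and the receptors return to the surface. Loss of megalin or cubilin leaves filtered proteins, vitamin carriers among them, in the urine.

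The 2 libraries differed most in the genes of the group with GC-rich transcripts. For 6 of the genes, the 60 coding bases within 1 exon whose GC content lies nearest to that of the whole coding sequence are shown, with G and C in capitals, 5′ to 3′ on the coding strand. They were read from GENCODE M21 transcripts on mm10.
Amn, chr12:111271748-111271807, plus strand: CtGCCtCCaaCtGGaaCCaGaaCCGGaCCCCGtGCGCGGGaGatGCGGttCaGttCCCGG
Fcgrt, chr7:45102606-45102665, minus strand: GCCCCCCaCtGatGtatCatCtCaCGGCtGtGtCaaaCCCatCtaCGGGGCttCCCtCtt
Lrpap1, chr5:35097628-35097687, minus strand: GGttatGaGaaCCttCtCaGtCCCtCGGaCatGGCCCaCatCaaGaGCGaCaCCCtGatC
Lrp2, chr2:69552401-69552460, minus strand: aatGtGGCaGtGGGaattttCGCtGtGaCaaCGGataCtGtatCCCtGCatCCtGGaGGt
Dab2, chr15:6418290-6418349, plus strand: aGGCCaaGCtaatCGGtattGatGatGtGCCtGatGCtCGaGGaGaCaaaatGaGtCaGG
Cubn, chr2:13491735-13491794, minus strand: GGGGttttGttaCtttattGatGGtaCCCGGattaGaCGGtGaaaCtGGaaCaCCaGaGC
Capitals make up 40 of the 60 bases in Amn, 34 in Fcgrt, 33 in Lrpap1, 30 in Lrp2, 29 in Dab2 and 28 in Cubn. GC content over the whole coding sequence was 65.9% in Amn, 57.2% in Fcgrt, 55.6% in Lrpap1, 49.7% in Lrp2, 48.6% in Dab2 and 46.4% in Cubn. Clcn5, at 49.6%, and Ocrl, the lowest at 45.7%, are not shown. Over the whole main transcript, which includes the untranslated ends, GC content was 62.9% in Amn, 55.9% in Fcgrt, 52.8% in Lrpap1 and 49.1% in Lrp2. It was 46.4% in Cubn and in Ocrl, 44.7% in Clcn5 and 43.6% in Dab2.

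Library 2 held 20720537 expected counts and library 1 held 28263730. Mitochondrially encoded genes with their near-identical nuclear copies made up 36.5% of library 2 TPM and 74.5% of library 1 TPM. TPM is a length-corrected share with a fixed sum, so a larger mitochondrial share leaves less TPM for the remaining genes. At least 1 TPM was reached by 13223 genes in library 2 and 9532 genes in library 1. Of 9 proximal tubule markers, all 9 were at 1 TPM or more in both libraries, led by Napsa and Miox, and they summed to 9742 TPM in library 2 and 938 TPM in library 1. The summed markers of the other kidney cell types were also higher in library 2 than in library 1, at 191 against 84.9 TPM for podocytes, 3613 against 980 TPM for the thick ascending limb and distal tubule, and 424 against 66 TPM for the collecting duct. In library 2 against library 1 they were 247 against 93.4 TPM for endothelium, 54.5 against 2.33 TPM for macrophages and 203 against 53.5 TPM for fibroblasts and mural cells. Of the 3 markers of other tissues that use the receptors, Pth and Gcm2 were at 0 in both libraries. The remaining marker, Afp, had 0.99 TPM in library 2, against 0.67 TPM in library 1. The part of these shifts in the values of the 8 genes was not tested. For any level measured in whole kidney, fewer cells of a type and less RNA per cell cannot be told apart. Both libraries came from the same tissue sample, so the gaps given here lie between libraries of the same tissue.

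The 8 genes were expressed over a wide range. They summed to 1080 TPM in library 2 and 388 TPM in library 1, and held 0.483% and 0.336% of the expected counts of library 2 and library 1. By mean level the order was Dab2, Lrpap1, Lrp2, Fcgrt, Cubn, Amn, Clcn5 and Ocrl. In 6 of the 7 neighbouring pairs of this order the TPM ranges over the 2 libraries overlapped, and the exception was Clcn5 above Ocrl. Inside each library, Lrp2 also stood above Fcgrt and Cubn above Amn in both. The order within the remaining neighbouring pairs was opposite in the 2 libraries. In TPM rescaled without mitochondrial genes and their nuclear copies, the order by mean was Dab2, Lrp2, Lrpap1, Cubn, Fcgrt, Clcn5, Amn and Ocrl. Within library 2 the order was Lrpap1, Lrp2, Dab2, Fcgrt, Cubn, Amn, Clcn5 and Ocrl, and within library 1 it was Dab2, Lrp2, Cubn, Clcn5, Lrpap1, Ocrl, Fcgrt and Amn. Across the 8 genes the levels of the libraries had a Spearman rho of 0.40. Lrpap1 led in library 2 but stood behind Clcn5 in library 1, whereas Lrp2 held the same place in both.

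**Figure D1:**
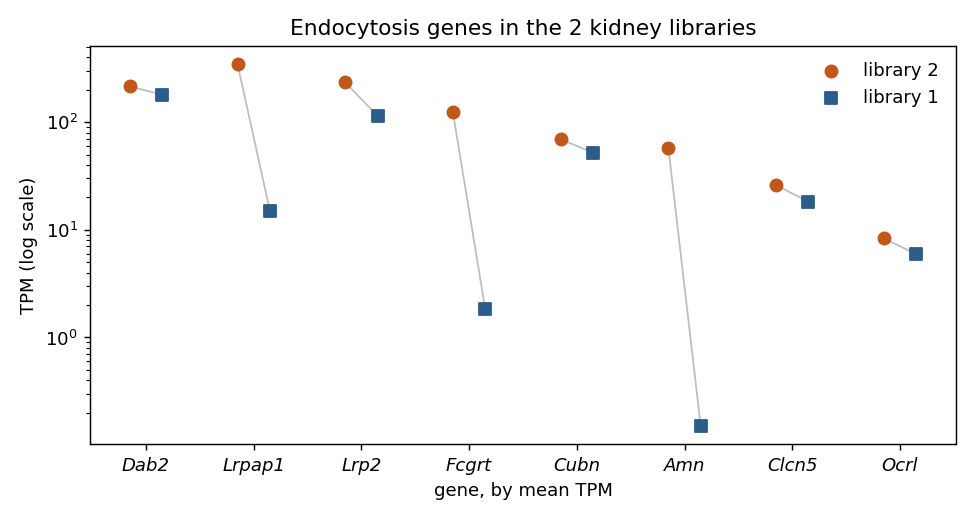
TPM of the 8 genes on a log axis, with library 2 as circles and library 1 as squares, ordered by mean TPM; each point is 1 library. Amn, Fcgrt and Lrpap1 are far apart, at 57.2, 123 and 347 TPM in library 2 and 0.15, 1.82 and 15.1 TPM in library 1, while Dab2 is close, at 215 TPM in library 2 and 180 TPM in library 1.

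Lrp2, the megalin gene, lies on chr2:69424340-69586065 on the minus strand, and its main transcript has 79 exons and 15460 bases. It had 234.56 TPM in library 2, against 114.19 TPM in library 1, a mean of 174 ± 85.1 TPM (SD, n = 2). Among 21474 protein-coding genes it ranked 444 in library 2 and 348 in library 1, so its place near the top of the transcriptome held in both. The TPM was 2.05 times as high in library 2, whereas the count ratio after TMM scaling, which sets library sizes on the bulk of genes, was slightly below 1. On the log2 scale this count ratio, library 2 over library 1, was -0.32 (95% interval -0.34 to -0.30), from 58539 counts in library 2 and 53232 in library 1. Megalin had the most counts of the group in both libraries.

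Cubn, the gene of cubilin, the receptor for intrinsic factor with vitamin B12 and for albumin and other ligands, lies on chr2:13276338-13491813 on the minus strand. It had 69.56 TPM in library 2, against 52.01 TPM in library 1, a mean of 60.8 ± 12.4 TPM (SD, n = 2). Its log2 ratio was -0.95 (95% interval -0.98 to -0.91), from 12653 counts in library 2 and 17773 in library 1. The gene Gm13270 on the opposite strand shares a stretch of 211 bases with the Cubn transcript. It had 4 counts in library 2 and 12 in library 1, as assigned by the authors' quantification. How reads in the shared stretch were divided between the 2 genes was not tested. Megalin TPM was 3.37 times that of cubilin in library 2 (95% interval 3.31 to 3.44) and 2.2 times in library 1 (95% interval 2.16 to 2.23). The larger receptor was thus the more abundant transcript in both libraries, by different factors.

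Amn, which encodes the membrane anchor that cubilin needs to reach the surface, lies on chr12:111271095-111276426 on the plus strand. It had 57.2 TPM in library 2, against 0.15 TPM in library 1, a mean of 28.7 ± 40.3 TPM (SD, n = 2). The counts behind these were 1407 in library 2 and 7 in library 1, and the exact Poisson 95% interval of the 7 counts runs from 2.81 to 14.4. In library 2 cubilin and its anchor were close, with 1.22 times as much Cubn as Amn TPM (95% interval 1.15 to 1.29). In library 1 the same ratio was 342 (95% interval 166 to 852). The transcript was therefore well sampled in library 2 and close to the limit of detection in library 1. The log2 ratio of Amn was 7.10 (95% interval 6.15 to 8.51), or 137-fold higher in library 2 (95% interval 70.9 to 365), the largest of the 8.

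Lrpap1 encodes the receptor-associated protein, a chaperone of the endoplasmic reticulum that keeps ligands off megalin while it folds, and lies on chr5:35091501-35105766 on the minus strand. It had 346.89 TPM in library 2, against 15.08 TPM in library 1, a mean of 181 ± 235 TPM (SD, n = 2), from 10545 counts in library 2 and 1291 in library 1. The chaperone was 1.48 times as abundant as megalin itself in library 2 (95% interval 1.45 to 1.51), and in library 1 only 0.132 times (95% interval 0.125 to 0.14). The order of the chaperone and its client was thus opposite in the 2 libraries. Its log2 ratio was 2.57 (95% interval 2.49 to 2.66), or 5.95-fold higher in library 2.

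Dab2 encodes the adaptor that binds the cytoplasmic tails of megalin and links it to clathrin and AP-2, and lies on chr15:6299788-6440712 on the plus strand. It had 214.59 TPM in library 2, against 180.24 TPM in library 1, a mean of 197 ± 24.3 TPM (SD, n = 2). These levels put it at rank 497 of the protein-coding genes in library 2 and rank 201 in library 1. The adaptor stood at 0.915 times the megalin TPM in library 2 (95% interval 0.896 to 0.934) and at 1.58 times in library 1 (95% interval 1.55 to 1.61). Adaptor and receptor were thus of similar abundance, but which of them was higher depended on the library. The log2 ratio was -1.23 (95% interval -1.27 to -1.19), from 10146 counts in library 2 and 17353 in library 1, so on this scale Dab2 was 2.35-fold higher in library 1.

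Clcn5 and Ocrl act in the endosome, and mutations of their human counterparts cause Dent disease and Lowe syndrome. Clcn5, the gene of an endosomal chloride-proton exchanger, lies on chrX:7153810-7319358 on the minus strand. It had 25.97 TPM in library 2, against 18.25 TPM in library 1, a mean of 22.1 ± 5.46 TPM (SD, n = 2). Its log2 ratio was -0.92 (95% interval -0.99 to -0.85), from 3196 counts in library 2 and 4405 in library 1. Ocrl, the gene of an inositol phosphatase of coated pits and endosomes, lies on chrX:47912387-47965868 on the plus strand and was the least abundant of the group by mean. It had 8.34 TPM in library 2, against 5.93 TPM in library 1, a mean of 7.13 ± 1.7 TPM (SD, n = 2). Its log2 ratio of -1.02 (95% interval -1.18 to -0.86), from 529 counts in library 2 and 783 in library 1, lay close to the threshold of 1 in size. Clcn5 stood at 3.11 times the Ocrl TPM in library 2 (95% interval 2.84 to 3.42) and at 3.08 times in library 1 (95% interval 2.85 to 3.32). Of the 7 ratios between the genes that were computed, it was the one whose intervals overlapped between the libraries.

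Fcgrt encodes the large subunit of the neonatal Fc receptor, which binds albumin and IgG at acid pH and returns them from the endosome, and lies on chr7:45092990-45103851 on the minus strand. It had 123.08 TPM in library 2, against 1.82 TPM in library 1, a mean of 62.4 ± 85.7 TPM (SD, n = 2), from 3135 counts in library 2 and 87 in library 1. Set against megalin, it was at 0.525 times in library 2 (95% interval 0.506 to 0.544) and at 0.016 times in library 1 (95% interval 0.0128 to 0.0197). Its log2 ratio was 4.71 (95% interval 4.41 to 5.04), or 26.1-fold higher in library 2. B2m, the light chain with which the receptor pairs, had 442.55 TPM in library 2, against 411.65 TPM in library 1. The light chain, which other molecules share, was thus close in TPM between the libraries, and on TMM-scaled counts its log2 ratio was -1.26.

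A gene was called different between the libraries when the exact two-sided binomial test on rounded counts gave a Benjamini-Hochberg adjusted p below 0.05, over all 15553 genes tested, and the log2 ratio was at least 1 in size. The test compares 2 libraries, covers counting error only and has no replicate check, since each side is 1 library. Amn, Fcgrt and Lrpap1 were called higher in library 2, which is 3 of 8, beside 35.5% of all genes tested. Dab2 and Ocrl were called higher in library 1, which is 2 of 8, beside 24.9% of all genes tested. The adjusted p of this exact test was 1.22e-36 for Ocrl. Lrp2, Cubn and Clcn5 were not called because their log2 ratios were under 1 in size, with adjusted p-values of the same exact test of 2.13e-295 for Lrp2 and 3.02e-167 for Clcn5. For the other 5 genes it was below the smallest number the software holds. These shares of the 8 genes are near the background. Their median log2 ratio was -0.62, against 0.12 for all genes tested.

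The scale on which the libraries are compared changes which is higher. In TPM as deposited all 8 genes were higher in library 2. In TPM rescaled without the mitochondrial genes and their nuclear copies, 5 of the 8 were higher in library 1. Rescaled Lrp2 was 370 TPM in library 2 and 448 TPM in library 1, rescaled Cubn 110 in library 2 and 204 in library 1, and rescaled Dab2 338 in library 2 and 708 in library 1. The other two were Clcn5, at 40.9 TPM in library 2 and 71.6 TPM in library 1, and Ocrl, at 13.1 TPM in library 2 and 23.3 TPM in library 1. Amn, Fcgrt and Lrpap1 stayed higher in library 2 than in library 1 when rescaled, at 90.1 against 0.589 TPM, 194 against 7.15 TPM and 547 against 59.2 TPM. With counts scaled to library totals in place of TMM, the median log2 ratio of all genes was 1.03 and that of Lrp2 turned to 0.58. On that scale Dab2 and Ocrl were no longer called, at -0.33 and -0.12, beside 4.55% of all genes called higher in library 1. Amn, Fcgrt and Lrpap1 were still called, beside 49.2% called higher in library 2.

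The ratio of the libraries followed transcript GC content across the 8 genes. Pearson's r between GC content and log2 ratio was 0.98 and Spearman's rho was 0.92 over these 8 genes, which share the same 2 libraries and are not independent replicates. Spearman's rho with transcript length was -0.55. The whole transcriptome showed the same course, and a smooth trend of the log2 ratio on GC content was fitted over 11508 genes with at least 100 counts. At the GC content of each gene the trend stood at -1.24 for Dab2, -1.05 for Clcn5, -0.75 for Cubn, -0.74 for Ocrl and -0.08 for Lrp2. It stood at 1.22 for Lrpap1, 2.87 for Fcgrt and 6.09 for Amn. The order of the 8 log2 ratios therefore resembled that of the trend, with Lrpap1, Fcgrt and Amn farthest above it. Whether base composition itself, or something that moves with it, set the ratios was not tested.

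**Figure D2:**
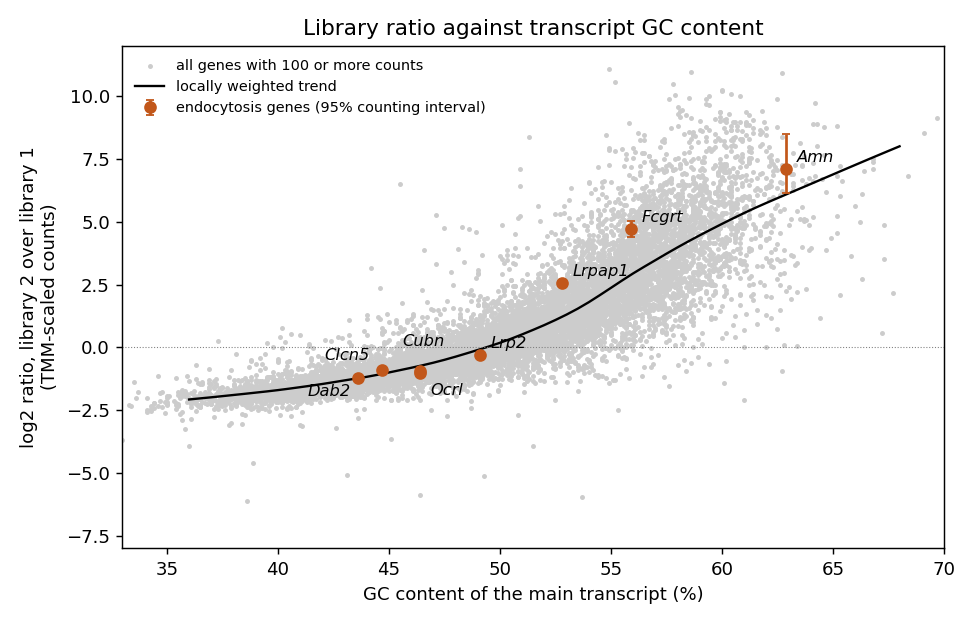
Log2 ratio of library 2 over library 1 from TMM-scaled counts against the GC content of the main transcript, with all genes of 100 or more counts in grey, the fitted trend as a line and the 8 genes in colour with 95% counting intervals. Dab2, at 43.6% GC, has a log2 ratio of -1.23 and Amn, at 62.9% GC, has one of 7.10; Lrpap1 (2.57) and Fcgrt (4.71) lie above the trend.

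With the trend removed, 2 of the 8 genes were called higher in library 2 and 0 in library 1, beside 11.4% higher in library 2 and 10.7% higher in library 1 among the 14801 genes tested in this way. Fcgrt kept a log2 ratio of 1.83 (95% interval 1.53 to 2.17) and Lrpap1 one of 1.36 (95% interval 1.27 to 1.44). Amn was no longer called, at 1.00 (95% interval 0.06 to 2.42), with an interval that was wide because of the 7 counts in library 1. At 2.01-fold Amn met the size threshold, and it was the threshold on the adjusted p that it missed. The genes of lower GC content lay near 0, at 0.01 for Dab2, 0.13 for Clcn5, -0.20 for Cubn, -0.24 for Lrp2 and -0.28 for Ocrl. The remaining ratios still had a Pearson's r of 0.73 with GC content over the 8 genes. For scale, the SD of the log2 ratio over all genes with at least 1000 counts was 2.15, and with the trend removed it was 1.01.

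The transcript tables listed 41 transcripts of the 8 genes, and each transcript's share of its gene was deposited as a percent of the gene's TPM. The receptors were close to a single form. Lrp2-201 held 99.12% of Lrp2 in library 2 and 98.74% in library 1. Cubn-201 held 99.75% in library 2 and 99.95% in library 1, and Amn and Fcgrt had 1 listed transcript each. In Clcn5 the main form Clcn5-201 held 90.09% in library 2 and 94.78% in library 1. The form Clcn5-202, whose coding sequence is 210 bases longer, had 0.2 TPM in library 2, against 0.02 TPM in library 1.

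Dab2 had the most forms, with 14 listed. Dab2-201 held 47.52% in library 2 and 79.7% in library 1, whereas Dab2-203 held 29.67% in library 2 and was listed at 0 in library 1. The coding exons of this pair are identical. They differ in the first exon and in the last, which ends 1084 bases earlier in Dab2-203, and together they held 77.2% in library 2 and 79.7% in library 1. At the level of the protein encoded, the main form thus had nearly the same share in both libraries, although its split between the transcripts differed. The GC content of Dab2-203 is 46.4%, against 43.6% for Dab2-201.

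A coding exon of 654 bases at chr15:6429296-6429949 separates the long from the short form of the Dab2 protein, and it is known to hold most of the binding sites for clathrin and AP-2. A read that crosses either of the junctions below tells the forms apart, and so does a read within the exon. The junctions are shown 5′ to 3′ on the plus strand of mm10 in GENCODE M21, with the downstream exon in capitals.
Junction that skips the exon: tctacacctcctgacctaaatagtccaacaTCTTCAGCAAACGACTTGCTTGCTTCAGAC
Junction that includes the exon: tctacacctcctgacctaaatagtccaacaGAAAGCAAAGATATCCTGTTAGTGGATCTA
The 3 transcripts with the exon summed to 7.64 TPM in library 2 and 3.16 TPM in library 1. The 4 transcripts that span the site without it summed to 176 TPM in library 2 and 145 TPM in library 1. The exon was thus included in 4.15% of the spanning Dab2 TPM in library 2 and 2.13% in library 1, so the short form made up nearly all of it in both. These shares are estimates of the authors' quantification, and reads across the junctions were not counted here.

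Lrpap1 was split among more forms in library 2. Lrpap1-201, the full-length form of 2992 bases, held 57.96% in library 2 and 98.67% in library 1. The shorter Lrpap1-205 held 25.45% and an unnamed transcript of 544 bases held 9.22% in library 2, and both were listed at 0 in library 1. The forms other than Lrpap1-201 summed to 146 TPM in library 2 and 0.2 TPM in library 1. In TPM as deposited, the full-length form alone was 13.5 times as high in library 2, and the whole gene was 23 times as high. These ratios also carry the difference in mitochondrial share. In TPM rescaled without mitochondrial genes and their nuclear copies, the whole gene was 9.23 times as high in library 2. In Ocrl the full-length Ocrl-201 held 48.51% in library 2 and 65.27% in library 1, and Ocrl-202, which has the last part of the gene in 5 exons, held 41.37% in library 2 and 25.96% in library 1. In all, 6 of the 41 transcripts were at 0 in library 1 and above 0 in library 2, and 1 was the other way round.

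**Figure D3:**
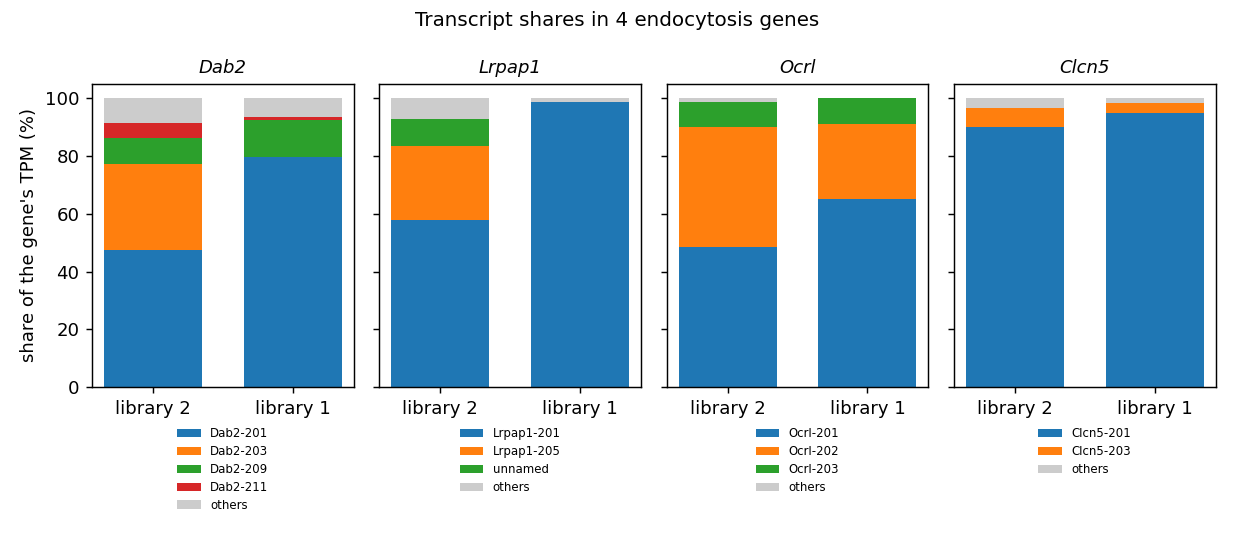
Share of each transcript in the TPM of its gene, in percent, for Dab2, Lrpap1, Ocrl and Clcn5, with library 2 as the left bar and library 1 as the right bar; forms under 5% in both libraries are pooled as others. Dab2-203 (29.67%) and Lrpap1-205 (25.45%) appear in library 2 and are absent from the bars of library 1, while Clcn5 is nearly the same in both.

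For each gene, the protein-coding gene with the nearest log2(TPM + 1) values in the 2 libraries was looked up. Lrp2 was nearest to Cldn2, a claudin of the proximal tubule's tight junctions, which had 234.99 TPM in library 2, against 116.36 TPM in library 1. Amn was nearest to Slc39a7, a zinc transporter, at 54.58 and 0.15 TPM in library 2 and library 1. Fcgrt was nearest to Ecm1, at 127.52 TPM in library 2 and 1.78 TPM in library 1. The nearest genes of Amn and Fcgrt were GC-rich too, at 57.5% for Slc39a7 and 58.3% for Ecm1. Lrpap1 was nearest to Rpsa, a ribosomal protein gene with 50.6% GC, Cubn to Ccpg1, Dab2 to ccdc198, Clcn5 to Hnrnph3 and Ocrl to Hsbp1l1. With values from only 2 libraries, likeness here means similar levels in both and nothing more.

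The wider pathway was described in 8 lists with 150 distinct matched genes besides the 8, of which 141 were tested. Of these, 59 (41.8%) were called higher in library 2 and 34 (24.1%) in library 1, and 48 were not called. Their median log2 ratio was 0.57, against 0.12 for all genes. Among all genes tested the shares were 35.5% higher in library 2 and 24.9% in library 1. With the GC trend removed, 21 pathway genes were called higher in library 2 and 12 in library 1. Pathway genes without a GC value were left out there, so these counts are out of fewer than 141. Among all genes tested in this way the shares were 11.4% higher in library 2 and 10.7% in library 1. With total counts they were 49.2% higher in library 2 and 4.55% in library 1. The counts for each list below stand beside these shares.

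Among other endocytic receptors, 9 of 14 tested were called higher in library 2 and 1 in library 1. The shares among all genes were 35.5% and 24.9%. These receptors had a median log2 ratio of 1.86 and a median GC content of 54.2%. Removal of the GC trend left 5 receptors higher in library 2 and 2 in library 1. Folr1, the folate receptor of the brush border, had 438.38 TPM in library 2, against 16.3 TPM in library 1. Its log2 ratio was 3.62, and it was still called with the GC trend removed, at 1.60. Vldlr, a receptor of the same family as megalin, had 26.29 and 20.77 TPM in library 2 and library 1 and had a log2 ratio of -1.37 on TMM-scaled counts, a call in favour of library 1. Lrp10, another relative, had 43.84 TPM in library 2, against 1.01 TPM in library 1. With the trend removed Lrp10 stood at -0.28 and was not called.

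Of 25 genes of the clathrin coat and its adaptors, 12 were called higher in library 2 and 5 in library 1. The shares among all genes were 35.5% and 24.9%. With the GC trend removed the coat list had 2 genes higher in library 2, 3 higher in library 1 and 19 not called. Cltc, the clathrin heavy chain, had 96.88 TPM in library 2, against 99.27 TPM in library 1, and Picalm, a clathrin assembly protein, had 114.39 TPM in library 2 and 149.12 in library 1. Hspa8, the chaperone that takes the coat apart, had 1453 TPM in library 2, against 550.17 TPM in library 1, with a log2 ratio of 0.18. Coat genes were therefore at least as abundant as cubilin in both libraries for each of these 3. Of 29 genes of the early and recycling endosome, 7 were called higher in library 2 and 11 in library 1, with a median log2 ratio of -0.31 and a median GC content of 48.2%. This balance depended on the scaling. Total counts gave 10 endosome genes higher in library 2 and 1 in library 1, beside 49.2% and 4.55% of all genes. Removal of the GC trend gave 0 in library 2, 2 in library 1 and 24 not called. Rab11a, a GTPase of recycling endosomes, had 159.53 TPM in library 2, against 164.5 TPM in library 1. Vps35, a core subunit of the retromer, had 90.33 TPM in library 2 and 132.46 in library 1, and Rab7, a GTPase of late endosomes, had 219.0 TPM in library 2, against 86.24 TPM in library 1.

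Of 15 phosphoinositide enzymes and OCRL partners tested, 5 were called higher in library 2 and 4 in library 1. The shares among all genes were 35.5% and 24.9%. Total counts gave 9 of the enzymes and partners higher in library 2 and 0 in library 1, beside 49.2% and 4.55% of all genes. With the GC trend removed 0 were called in either direction. Inpp5b, the closest relative of Ocrl, had 26.38 TPM in library 2, against 7.82 TPM in library 1, and was thus above Ocrl in both. Mtmr2, a lipid phosphatase, had 25.28 and 23.22 TPM, and Pip5k1c, a lipid kinase, had 28.26 and 0.28 TPM, in library 2 and library 1. Of 14 genes of endosomal ion transport, 5 were called higher in library 2 and 6 in library 1. Total counts gave 7 ion transport genes higher in library 2 and 0 in library 1, and removal of the GC trend gave 3 higher in library 2 and 0 in library 1. Clcn3, a relative of Clcn5, had 36.56 TPM in library 2, against 39.8 TPM in library 1, above Clcn5 in both. The accessory proton pump subunits Atp6ap1 and Atp6ap2 had 165.83 and 81.71 TPM in library 2 and 62.93 and 91.49 TPM in library 1.

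Of 17 tested genes whose products are filtered ligands of megalin or cubilin, 9 were called higher in library 2 and 3 in library 1. The shares among all genes were 35.5% and 24.9%. Of the 23 ligand genes listed, 7 were under 1 TPM in both libraries. With the GC trend removed 6 ligand genes were called higher in library 2 and 2 in library 1. Tcn2, which encodes the vitamin B12 carrier transcobalamin and stands in 2 of the lists, had 978.69 TPM in library 2, against 9.44 TPM in library 1. Apoe, an apolipoprotein, had 479.21 TPM in library 2, against 1.23 TPM in library 1. These are transcripts made in the kidney and say nothing of the protein filtered from blood. Of 16 genes that process absorbed ligands, 6 were called higher in library 2 and 2 in library 1. With the GC trend removed, 5 were higher in library 2, 0 in library 1 and 10 were not called. Gpx3, a selenium-containing peroxidase that the proximal tubule secretes, led with 20021 TPM in library 2 and 2855 TPM in library 1. Selenop, the selenoprotein that megalin takes up, had 853.87 and 641.39 TPM, and Lamp2, a lysosomal membrane protein, had 490.47 and 505.5 TPM, in library 2 and library 1.

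Of 12 transcription factors linked to these genes, 7 were called higher in library 2 and 2 in library 1. The shares among all genes were 35.5% and 24.9%. The 12 factors had a median log2 ratio of 1.25 and a median GC content of 55.6%. With the GC trend removed, 1 of them was called higher in library 2 and 3 in library 1. Hnf4a, a nuclear receptor of the proximal tubule, had 223.72 TPM in library 2, against 34.24 TPM in library 1. Maf had 52.39 TPM in library 2, against 60.63 TPM in library 1 and was called higher in library 1, with a log2 ratio of -1.61, and also with the GC trend removed, at -1.08.

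**Figure D4:**
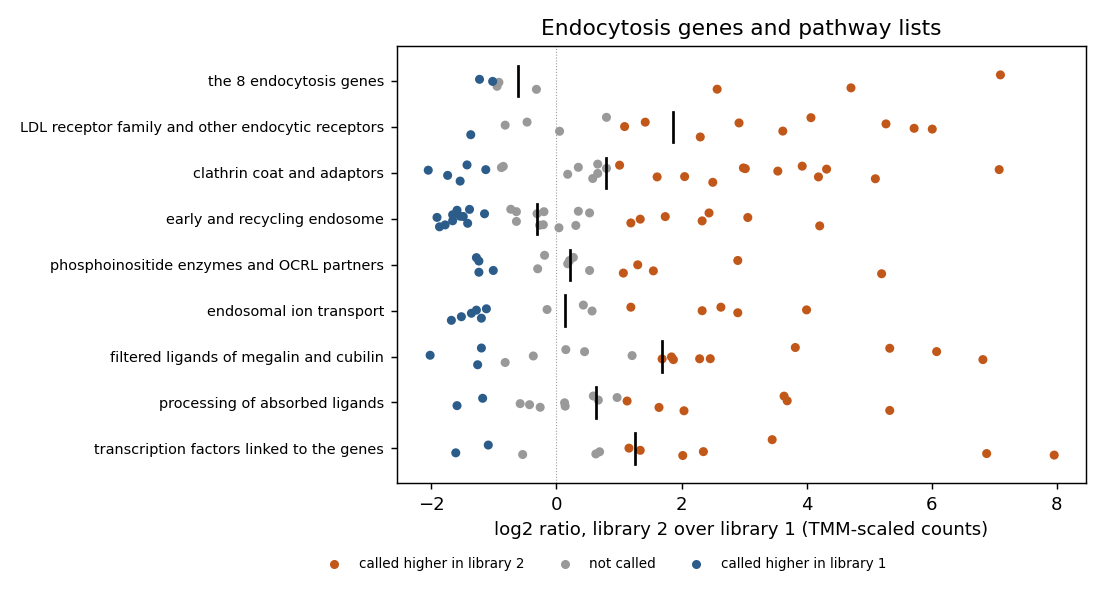
Log2 ratio of library 2 over library 1 from TMM-scaled counts for the 8 genes and for the tested genes of the 8 pathway lists, each point a gene, coloured by its call, with the median of each row as a black bar. The medians are -0.62 for the 8 genes, 1.86 for other endocytic receptors and -0.31 for the early and recycling endosome, and every row has genes called in both directions.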

How the data were processed

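The authors deposited tables per gene and per transcript on mm10, annotated with release M4, per the text beside them. The aligner, the quantifier and the strand setting were not given in the sources used here. Expected counts were deposited without normalization, TPM as counts over effective length scaled to a common sum, and transcript shares as a percent of the gene's TPM, per the file headers. Posterior SDs of counts and TPM bounds were deposited as other columns and lengths in bases.

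GENCODE M21, on the same assembly, supplied symbols, coordinates and transcript sequences and matched 42462 of 43346 gene rows. A further 26345 rows of spike-ins and numbered short RNAs were at 0 and were left out. Rows without a symbol held 0.0853% of counts in library 2 and 0.0741% in library 1. Each gene was described by its most abundant transcript whose file length lay within 10% of the reference length.

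Counts were rounded. Library sizes were scaled by TMM (edgeR 4.0.16, R 4.3.3) with genes under 10 counts in total left out. Since 1 library a side leaves no residual degrees of freedom for a quasi-likelihood fit, an exact two-sided conditional binomial test was used, with Benjamini-Hochberg adjustment (Python 3.11.15, scipy 1.17.1). Genes were called at an adjusted p below 0.05 and a log2 ratio, with a prior count of 0.5, of at least 1 in size. The GC trend was fitted by lowess (statsmodels 0.14.6, span 20%) to genes of 100 counts or more, 95.5% of which had a GC value. Shared sequence was searched with blastn 2.17.0 at 95% identity. A match had to cover 80% of a copy's length for mitochondrial genes and 50% for the 8 genes, none of which shared such a stretch. Intervals cover counting error only. The deposited posterior SD of the count was 0 for the 8 genes.

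The test was checked on simulated counts that held counting error only and a simpler GC trend than the fitted one. That check cannot show how the test does where libraries vary in other ways. The genes, lists and tests were chosen with earlier results of these data known. Named genes are the 8, the 3 of highest mean TPM in each pathway list and the nearest gene of each of the 8. From the marker lists they are the 2 of highest mean TPM for the proximal tubule and all 3 of other tissues. A gene that this rule selects is not reported here. Alternatives were DESeq2 1.42.0 size factors, total counts, TMM without mitochondrial genes, no filter, the GC trend removed, posterior means, a prior count of 2, rescaled TPM and each library alone. Phetta1 and Phetta2 were not matched, and Cblif was matched as Gif.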

Additional observations from a re-analysis of the deposited data

How the results depend on the processing

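With the GC trend removed, 1681 genes were called higher in library 2 and 1579 in library 1; with total counts, 708 were called higher in library 1. Of the 8 genes, 0 were called higher in library 1 under either setting. Of the pathway-list genes, 21 were called higher in library 2 and 12 in library 1 with the trend removed, and 3 higher in library 1 with total counts. The log2 ratio turned to 0.58 for Lrp2 with total counts, and to 0.01 for Dab2 and 0.13 for Clcn5 with the trend removed. DESeq2 size factors, TMM without mitochondrial genes, no filter, posterior mean counts and a prior count of 2 changed no call of the 8 genes.

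Mean TPM rescaled without mitochondrial genes and copies was 409 for Lrp2, 157 for Cubn, 523 for Dab2, 56.3 for Clcn5 and 18.2 for Ocrl, and 303 for Lrpap1, 101 for Fcgrt and 45.4 for Amn. These shifts follow from the smaller sum in the rescaling; the cause of the others was not tested. With library 2 or library 1 alone, TPM was 235 or 114 for Lrp2, 69.6 or 52 for Cubn, 57.2 or 0.15 for Amn, 215 or 180 for Dab2, 347 or 15.1 for Lrpap1, 26 or 18.2 for Clcn5, 8.34 or 5.93 for Ocrl and 123 or 1.82 for Fcgrt. An alternative chosen after seeing the data divided TPM of library 2 by the trend, and the Spearman rho between the libraries' levels of the 8 genes was then 0.90 against 0.40. The division moves library 2 toward library 1 by construction. No paired analysis was possible because each side of the comparison is 1 library. Amn had the widest interval of the 8 log2 ratios, with 7 counts in library 1, the library with more counts in total.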

Other observations

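Among the genes of the pathway lists, the 3 farthest from the GC trend were picked after their values were seen. Tcn2, the transcobalamin gene, kept a log2 ratio of library 2 over library 1 of 3.23 with the trend removed, against 5.33 before, at a GC content of 54.5%. Ttr, which encodes the thyroxine and retinol-binding protein carrier transthyretin, had 31.55 TPM in library 2, against 2.49 TPM in library 1. Its log2 ratio was 3.02 with the trend removed and 2.29 before, at a GC content of 46.5%, which is close to that of Cubn and Ocrl. Ybx3, a cold shock domain protein gene, had 32.83 TPM in library 2, against 8.46 TPM in library 1, and its log2 ratio was -2.81 with the trend removed and 0.63 before.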
